A study of Homo sapiens with 66 samples.

Results

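A375 melanoma cells that carried a guide RNA against MED23 together with a SOX10 expression vector were compared with A375 cells that carried a guide against GFP together with an empty vector. Each group had 3 libraries, so the comparison took 6 of the 66 RNA-seq libraries of the series, chosen by the names that the labels give them. The first group is called rescued cells here and the second control cells. The question was which genes that differ after loss of MED23 stood at the control level, beyond it or short of it once SOX10 was supplied. Rescued libraries were therefore also read against 3 libraries of cells with the MED23 guide and the empty vector, called knockout cells, and beside 3 libraries of cells with the GFP guide and the SOX10 vector. The labels call these 4 genotypes MED23 KO/SOX10 OE, WT, MED23 KO and SOX10 OE, and they record no drug for any of the 12 libraries.

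MED23 is a subunit of the tail of Mediator, the large complex that links transcription factors bound at enhancers to RNA polymerase II. SOX10 is the SOXE-family factor that specifies melanocytes and glia from the neural crest, and it keeps the melanocytic genes of melanoma cells on. Melanoma cells that lose SOX10 are known to gain SOX9, EGFR and other genes of a dedifferentiated state that tolerates inhibitors of the BRAF kinase.

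As a model the comparison has limits that its labels set. A single MED23 guide was used with the vectors, the promoter of the SOX10 vector is not given in the sources used here, and nothing states whether the cells were clones or pools. No label tells whether the replicates of a group came from different cultures, and p-values therefore measure only the spread between these samples. Both groups compared carry a guide and a vector, and all 12 libraries have the same batch label.

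Libraries of the SOX10 experiment held 24.9 to 30.8 M counts (M stands for 1e6), 26.1 to 27.6 M in control and 27.8 to 29.1 M in rescued cells. Rescued replicate 1 stood apart from the other two libraries of its group. Its counts differed from theirs by 5.12 and 5.8 times the variance that counting alone gives, against 1.48 between replicates 2 and 3 and 1.42 to 2.98 within the other 3 groups. Mitochondrial genes took 1.46 to 1.75% of counts in control, 1.76 to 1.86% in knockout and 1.2 to 1.38% in rescued libraries. Markers of other cell types were also summed, as CPM (counts per M counts of the scaled library). The 10 fibroblast markers came to 25.5 to 27.8 CPM in control, 39.7 to 41.5 in knockout and 35.8 to 36.9 in rescued cells, and that of 10 neuronal markers 92 to 95.2, 80.1 to 82.6 and 54.4 to 56.3. The same sums were 214 to 225, 291 to 304 and 185 to 198 for 10 epithelial markers, and 14.6 to 15.8, 7.58 to 10.2 and 7.24 to 8.71 for 10 blood cell markers, among which HBB had no count. The part of these markers in the results was not tested. Of the melanocytic enzymes, TYR had no count and TYRP1 19 counts in the 3 control libraries together, so these enzymes were near absent.

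MED23 (ENSG00000112282, GRCh38 chr6:131573966-131628229) was measured first, since it checks the labels. Its level was 31.9, 29.4 and 31.7 CPM in the control libraries, 16.6, 16.0 and 15.7 in knockout and 16.1, 14.3 and 15.8 in rescued cells. Rescued libraries were all below all control libraries, and the vector did not restore MED23. The log2 fold change of rescued minus control was −1.01 (SE 0.0551, edgeR adjusted p = 4.281e-15), and that of rescued minus knockout −0.06 (adjusted p = 0.4502). The mRNA only shows what the guide left in the pool of transcripts, not the protein.

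SOX10 (ENSG00000100146, chr22:37970686-37987422) was brought most of the way back. It measured 529.5, 531 and 514 CPM in control, 239, 248 and 251 in knockout and 428, 436 and 423 in rescued libraries, with no overlap between the 3 groups. Rescued cells thus had 0.80 more SOX10 than knockout cells on the log2 scale (adjusted p = 4.61e-19) and 0.29 less than control cells (SE 0.0297, adjusted p = 4.308e-09, 95% interval −0.35 to −0.23). In cells with the GFP guide the same vector raised SOX10 from 525 to 600 CPM, by 0.19 on the log2 scale (adjusted p = 7.546e-06). The vector's effect was larger by 0.61 in the cells with the MED23 guide (SE 0.0424, adjusted p = 7.445e-12). Counts from the vector and from the cells' own gene could not be told apart here.

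**Figure D1:**
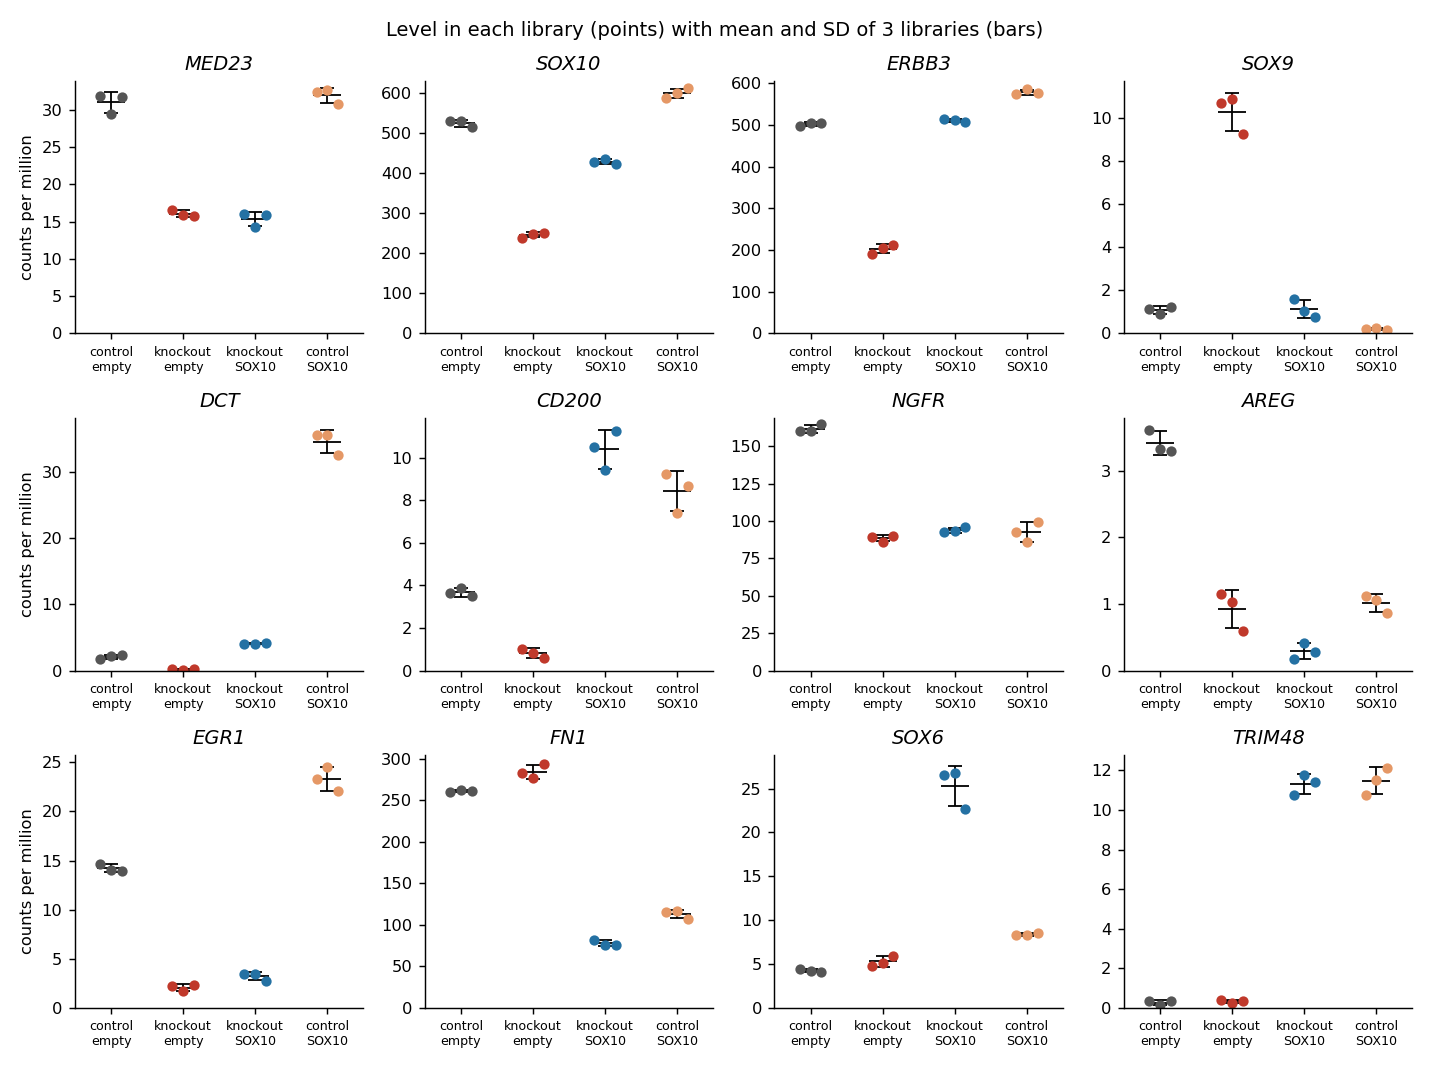
Level of 12 genes in each library, in CPM on linear axes from 0 (points, 3 libraries per group; long bar, mean; error bar, SD). The groups from left to right are GFP guide with empty vector, MED23 guide with empty vector, MED23 guide with SOX10 vector and GFP guide with SOX10 vector; ERBB3 and SOX9 are back at the control level in the third group, while NGFR, AREG and EGR1 are not.

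Across 18009 genes with enough counts for the test, 501 (2.78%) differed at least 2-fold between rescued and control cells with an adjusted p under 0.05, 213 of them higher and 288 lower. Without rescued replicate 1, 209 were higher and 317 lower. For comparison, 992 genes (5.51%) passed the same rule between knockout and control cells. Both comparisons share the control libraries, so their counts are set side by side and not tested against each other. In bulk RNA, fewer cells of a type and less RNA per cell cannot be told apart. Without the fold requirement, 2982 genes (16.6%) were higher and 3040 (16.9%) lower in rescued cells.

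The 992 knockout-changed genes were then sorted by where the rescued libraries stood. A gene was counted as returned when it moved back from the knockout level at an adjusted p under 0.05 and the whole 95% interval of rescued minus control lay within 1.5-fold either way. It had overshot when rescued cells differed from control cells by at least 1.5-fold in the opposite direction, and stayed away when they differed by at least 1.5-fold in the direction of the knockout, both at an adjusted p under 0.05. By these rules 189 genes (19.1%) returned, 64 (6.45%) overshot and 323 (32.6%) stayed away, and 416 (41.9%) could not be placed. Without rescued replicate 1 the numbers were 183, 56 and 312, of which 164, 51 and 294 were the same genes.

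Most genes moved back at least part of the way. Rescued and knockout cells differed in 41.9% of all genes tested at an adjusted p under 0.05, and among the 992 genes 762 moved towards control and 14 away from it. The median of the 537 genes raised in knockout cells was 1.42 on the log2 scale there and 0.40 in rescued cells. That of the 455 lowered genes was −1.38 and −0.46. Since the knockout libraries both chose these genes and entered their sorting, the sorting was repeated on genes chosen in other libraries.

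**Figure D2:**
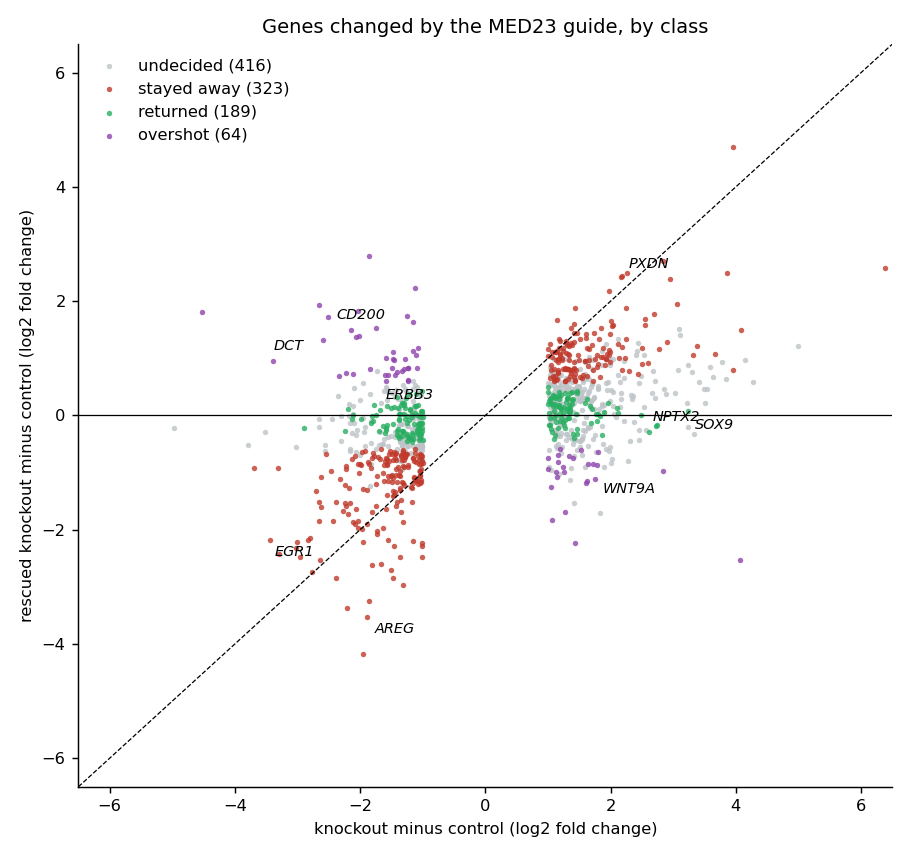
Log2 fold change of rescued minus control cells (vertical axis) against knockout minus control cells (horizontal axis) for the 992 knockout-changed genes, 1 point per gene, coloured by class. Points on the horizontal line at 0 are at the control level and points on the dashed diagonal have not moved; the same 3 control libraries enter both axes.

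MED23 guides 1 and 2 had also been compared with the GFP guide in another set of libraries, the Mediator experiment, and 1402 genes changed there with both guides. Of these, 1067 were measured in the SOX10 experiment, and 815 of them moved towards control in rescued cells and 23 away. Their classes were 233 returned (21.8%), 91 overshot (8.53%), 299 stayed away (28%) and 444 not placed (41.6%). Another set of MED23 knockout libraries, those of the HDAC3 experiment, gave 856 measured genes, with 154 returned, 67 overshot, 290 stayed away and 345 not placed. Without rescued replicate 1, the genes chosen in the Mediator experiment gave 224, 81 and 288. The HDAC3 experiment's control columns were tied to their samples by elimination of the other names. Among the 741 genes changed in both the SOX10 and the Mediator experiment, 153 (20.6%) returned, 55 (7.42%) overshot and 248 (33.5%) stayed away. By these margins more genes stayed away than returned in each of these choices, but the order depends on the margin. With a return interval of 2-fold, 389 of the 992 genes returned against 323 that stayed away. Without a fold minimum 3669 genes returned and 666 stayed away. That choice admits genes less than 1.5-fold from control in knockout cells, which can return but can hardly stay away. Its counts are thus largely set by the rule and cannot decide the order.

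**Figure D3:**
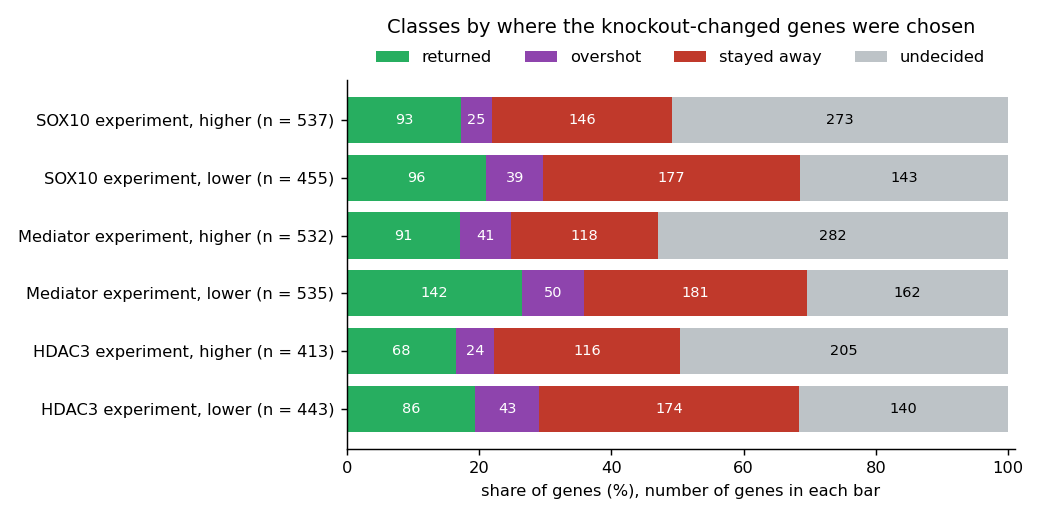
Share of genes in each class (horizontal axis, percent; the number of genes is printed in each bar) for knockout-changed genes chosen in the SOX10, Mediator or HDAC3 experiment, higher and lower genes apart. Lowered genes returned in 96 of 455, 142 of 535 and 86 of 443 cases, and raised genes in 93 of 537, 91 of 532 and 68 of 413. Not placed were 31.4, 30.3 and 31.6% of the lowered but 50.8, 53 and 49.6% of the raised genes. The returned counts therefore do not show that 1 direction returned more often.

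ERBB3, the neuregulin receptor and a well-known SOX10 target, returned to the control level. Its level was 497, 505 and 505 CPM in control, 191, 205 and 213 in knockout and 515, 512 and 508 in rescued libraries. All rescued libraries lay just above the control libraries and far above the knockout libraries. Rescued minus control was 0.03 (SE 0.0318, adjusted p = 0.5793, 95% interval −0.04 to 0.09). SOX9, the SOXE factor of cells that have left the melanocytic state, had risen in knockout cells and returned too. It measured 1.12, 0.891 and 1.25 CPM in control, 10.7, 10.9 and 9.30 in knockout and 1.60, 1.07 and 0.787 in rescued libraries, so rescued and control values overlapped. The difference was 0.08 (SE 0.233, 95% interval −0.40 to 0.55), and with so few counts the interval only just lay inside the margin.

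Among other returned genes that the knockout had raised, the largest changes were those of 5 genes. MAL2, a membrane traffic protein, stood at 2.05, 1.90 and 1.84 CPM in control, 14.1, 12.2 and 12.5 in knockout and 1.88, 1.72 and 1.54 in rescued libraries. NPTX2, a secreted neuronal pentraxin, went from 6.75, 7.75 and 7.31 to 43.2, 44.4 and 45.7 and back to 5.92, 5.68 and 6.22. F2RL1, a receptor cut and activated by proteases, went from 10.7, 10.3 and 10.7 to 45.8, 44.8 and 46.0 and back to 11.4, 11.2 and 12.2. All 3 genes came down from levels several times those of control. SLC14A1, a urea transporter, and CHGB, a secretory granule protein, differed by 0.21 (adjusted p = 0.03833) and 0.07 (adjusted p = 0.7476) from control after 1.96 and 1.90 in knockout cells. Returned did not mean identical, since NPTX2 ended below control by a small margin (−0.29, SE 0.0864, adjusted p = 0.00939).

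Of the returned genes that the knockout had lowered, CDH19 is a cadherin of the Schwann cell lineage. Its level was 76.7, 78.1 and 75.3 CPM in control, 21.5, 20.8 and 22.7 in knockout and 69.7, 69.5 and 70.6 in rescued libraries. The rescued libraries were within a few CPM of each other and still all below control (−0.13, SE 0.0391, adjusted p = 0.008351). MMP8, the collagenase best known from neutrophils, went from 16.6, 18.8 and 17.7 CPM to 2.29, 2.51 and 2.30 and back to 13.4, 16.1 and 16.0. PDE3A, a cyclic nucleotide phosphodiesterase, went from 42.7, 46.7 and 42.2 to 8.68, 8.68 and 10.4 and back to 35.1, 36.6 and 36.7. Each of these 3 genes regained most of a loss of at least 1.82 on the log2 scale. The ion channel TRPM3 and the scramblase-family protein ANO4 differed from control by −0.02 and −0.10, neither past the threshold (adjusted p = 0.9077 and 0.2752), after −1.81 and −1.80.

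Of the 64 genes that overshot, 39 had been lowered by the knockout. CD200, a surface glycoprotein that restrains myeloid cells, stood at 3.66, 3.88 and 3.49 CPM in control, 1.03, 0.849 and 0.601 in knockout and 10.5, 9.43 and 11.3 in rescued libraries. Rescued libraries were thus all above control libraries (1.5, SE 0.108, adjusted p = 2.264e-12). FABP7, the brain fatty acid-binding protein, went from 6.31, 7.01 and 7.27 to 2.93, 3.07 and 3.18 and then to 18.9, 20.6 and 24.2 (1.63, SE 0.0891, adjusted p = 4.484e-15). FOLH1, a glutamate carboxypeptidase, measured 1.98, 1.86 and 2.20 in control and 6.14, 7.51 and 6.69 in rescued libraries (1.75, SE 0.119). The proteoglycan ACAN (1.00) and TRIM51 (1.12) complete the 5 largest, TRIM51 with the caution that its family has near-identical copies whose reads the counting could split. DCT, the melanin synthesis enzyme dopachrome tautomerase, was lost almost entirely in knockout cells, with 0.305, 0.111 and 0.177 CPM against 1.79, 2.13 and 2.35. It stood at 3.97, 4.03 and 4.11 in rescued libraries, 0.95 above control (SE 0.131, adjusted p = 1.088e-06). In cells with the GFP guide the vector took DCT to 34.5 CPM, and CD200, FABP7 and FOLH1 to 8.45, 18.3 and 7.52. ACAN and TRIM51 stood at 11.0 and 14.3 CPM there. With the vector, all these genes were thus above control with either guide.

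Genes that the knockout had raised and the vector took below control were fewer, 25 against 39. CPA4, a secreted carboxypeptidase, measured 114, 103 and 108 CPM in control, 281, 281 and 262 in knockout and 65.5, 68.7 and 63.4 in rescued libraries (−0.72, SE 0.0429, adjusted p = 3.478e-14). MMP1, the interstitial collagenase, measured 6.94, 7.36 and 6.35, then 24.0, 24.9 and 22.6, then 4.01, 4.10 and 5.15 (−0.64, adjusted p = 1.843e-05). Both rescued sets lie wholly under their control sets. The ligand WNT9A (−1.11), the tyrosine phosphatase PTPRE (−0.94) and the drug efflux pump ABCG2 (−0.75) followed the same course. For ABCG2 the libraries read 7.98, 7.63 and 7.71 in control, 15.4, 16.9 and 14.6 in knockout and 4.54, 4.34 and 5.01 in rescued cells. The vector also took these genes below control in GFP-guide cells. There CPA4 stood at 19.3, MMP1 at 1.74, WNT9A at 1.915, PTPRE at 2.43 and ABCG2 at 4.02 CPM.

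Of the 323 genes that stayed away by the 1.5-fold margin, 168 moved towards control without reaching it, 141 did not move past the threshold and 14 moved further away. FST, follistatin, the secreted inhibitor of activins, fell from 267, 296 and 285 CPM in control to 27.4, 29.0 and 29.6 in knockout cells and stood at 50.4, 53.6 and 53.2 in rescued libraries. That leaves FST lower by 2.43 on the log2 scale (SE 0.0395, adjusted p = 8.43e-28). CEMIP, which degrades hyaluronan, measured 265, 273 and 257 in control, 30.1, 32.0 and 36.5 in knockout and 57.7, 56.1 and 57.6 in rescued libraries (−2.21, SE 0.0418). The cytokine IL24 measured 92.6, 100.4 and 93.2, then 11.1, 11.9 and 12.1, then 18.6, 19.4 and 19.4 (−2.32, SE 0.0464). These 3 genes gained 0.71 to 0.87 over the knockout and remained far short of control. LAD1, a protein of epithelial anchoring filaments, did not move past the threshold, with 8.54, 9.53 and 9.73 CPM in control and 1.38, 1.03 and 1.75 in rescued libraries (rescued minus knockout 0.03, adjusted p = 0.9336). CXCL8, the neutrophil chemokine, fell further, from 3.96, 3.66 and 4.60 CPM in knockout to 1.53, 1.79 and 1.79 in rescued libraries, against 7.91, 8.76 and 8.15 in control. The vector also lowered CXCL8 in GFP-guide cells, to 3.24 CPM (−1.35 on the log2 scale). The 2 vector effects differed by 0.10 (adjusted p = 0.8153).

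On the raised side, PXDN, a peroxidase of the extracellular matrix, went from 6.34, 5.27 and 5.54 CPM in control to 26.6, 24.9 and 26.3 in knockout and on to 30.7, 31.4 and 31.5 in rescued cells (2.45 above control, SE 0.0652, adjusted p = 1.989e-22). KIF26B, a kinesin family protein, likewise rose further, by 0.21 over the knockout (adjusted p = 0.009503), to 2.18 above control. The vector also raised PXDN by 0.69 and KIF26B by 0.32 in GFP-guide cells. The transcription factor CREB5 measured 2.69, 3.14 and 2.83, then 14.3, 12.7 and 14.1, then 12.7, 9.50 and 9.55. Rescued replicate 1, the library that stood apart, is the highest of its group here, and the other two libraries also lie far above control. IGFBP7, a secreted binding protein of insulin-like growth factors, and LPAR1, a receptor of lysophosphatidic acid, moved towards control by 0.86 and 0.96 and still ended 1.69 and 1.59 above it.

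Promoter sequence of 4 of these genes is shown, to set a returned, an overshot, a raised and a lowered gene that stayed away beside each other. They were picked because their windows hold a SOX motif, which 9 of the 36 windows found for the genes chosen by rule do. The bases are RefSeq's on GRCh38.p14, read 5′ to 3′ on the gene's strand, up to 250 bases before the gene's start and ending there or where a GENCODE 29 exon of the gene begins. Capitals mark each match to the SOX core motifs ACAAAG or AACAAT on either strand. CDH19 (returned) is at chr18:66604139-66604340 on the minus strand, ABCG2 (overshot) at chr4:88231627-88231876 on the minus strand, CREB5 (stayed above) at chr7:28412268-28412517 on the plus strand, inside longer transcripts of the same gene, and IL24 (stayed below) at chr1:206897193-206897442 on the plus strand.
CDH19: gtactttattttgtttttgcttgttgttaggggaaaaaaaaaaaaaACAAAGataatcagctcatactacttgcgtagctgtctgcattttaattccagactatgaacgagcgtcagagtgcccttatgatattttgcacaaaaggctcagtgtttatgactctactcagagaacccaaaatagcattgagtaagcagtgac
ABCG2: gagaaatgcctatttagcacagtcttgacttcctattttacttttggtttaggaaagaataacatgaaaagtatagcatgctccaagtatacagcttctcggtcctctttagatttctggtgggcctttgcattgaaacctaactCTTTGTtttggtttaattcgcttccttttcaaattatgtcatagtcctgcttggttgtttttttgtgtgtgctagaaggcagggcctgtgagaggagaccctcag
CREB5: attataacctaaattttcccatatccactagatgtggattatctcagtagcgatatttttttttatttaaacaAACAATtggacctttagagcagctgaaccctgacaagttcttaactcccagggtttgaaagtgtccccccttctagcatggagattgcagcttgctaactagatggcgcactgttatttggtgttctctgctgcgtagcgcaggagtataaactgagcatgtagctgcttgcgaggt
IL24: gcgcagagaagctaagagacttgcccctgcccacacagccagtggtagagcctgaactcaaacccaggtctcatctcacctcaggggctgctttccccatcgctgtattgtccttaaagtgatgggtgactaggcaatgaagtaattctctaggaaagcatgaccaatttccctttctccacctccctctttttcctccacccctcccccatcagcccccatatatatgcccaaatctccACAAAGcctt

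A SOX motif was found in the windows of genes from every class. Whole windows of 250 bases were found for 12029 of the 18009 genes tested and for 36 of the 53 genes chosen by rule. At least 1 of the SOX motifs was in 15 of 60 windows of returned genes that the knockout had lowered (25%), 11 of 30 of overshot lowered genes (36.7%) and 24 of 102 of lowered genes that stayed away (23.5%). The same shares were 15.9, 27.8 and 23.6% for raised genes that returned, overshot and stayed away, 17 and 19.2% for raised and lowered genes not placed, and 28.2 and 14.3% for newly higher and newly lower genes. Among all genes tested the share was 13.4%, and among all 27305 RefSeq windows 21.1%. The median GC content was 53 to 64% in these classes and 64.8% over all genes tested, and its part in the shares was not tested. A motif of AP-1, TGANTCA on either strand, was in 4.27% of windows of all genes tested. For returned, overshot and stayed-away lowered genes the shares were 1.67, 3.33 and 8.82% (1 of 60, 1 of 30 and 9 of 102 windows). For the raised ones they were 7.94, 11.1 and 11.8% (5 of 63, 2 of 18 and 13 of 110). The AP-1 motif was in 10.5 and 7.69% of raised and lowered genes not placed and in 15.4 and 8.57% of newly higher and newly lower genes. The E-box CATGTG, bound by MITF, was in 0 to 13.3% of the windows of a class and in 5.98% of all genes tested. Its lowest and highest shares were those of raised and lowered genes that overshot, 0 of 18 and 4 of 30 windows. The TEAD motif GGAATG was in 4.55 to 16.7%, against 9.64%. Its lowest share was that of raised genes that stayed away (5 of 110 windows), its highest that of raised genes that overshot (3 of 18). These extremes rest on few windows. A match to 6 or 7 letters is a description of the window and not a binding site.

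EGFR, a kinase receptor that rises when SOX10 is lost, is an example of a gene that could not be placed. It measured 14.7, 15.5 and 13.9 CPM in control, 79.8, 80.8 and 81.7 in knockout and 24.4, 20.6 and 20.7 in rescued libraries. Rescued libraries lay between the other groups without overlap, 1.88 under knockout cells and 0.57 above control cells (SE 0.064, adjusted p = 2.25e-08, 95% interval 0.44 to 0.71). The interval straddles the 1.5-fold margin, which is 0.585 on the log2 scale. Of the 416 genes not placed, 341 moved towards control, and their median level in control cells was 0.503 CPM against 13 for all genes tested, on a scale not corrected for length. RXRG, a retinoid receptor of neural crest-like melanoma cells, is another, with 34.0, 34.8 and 33.1 CPM in control, 3.85, 3.95 and 4.70 in knockout and 21.6, 22.2 and 25.6 in rescued libraries.

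A further 144 genes were called newly away from control in rescued cells, 69 higher and 75 lower (66 and 88 without rescued replicate 1). They were not past the threshold between knockout and control cells, differed by 2-fold between rescued and control cells and differed from knockout cells in the same direction. TRIM48 had the largest difference of those named, from 0.336, 0.116 and 0.330 CPM in control and 0.381, 0.259 and 0.318 in knockout to 10.8, 11.8 and 11.4 in rescued libraries. It also stood at 11.5 CPM in GFP-guide cells with the vector, and like TRIM51 it has near-identical copies. GPR37, an orphan receptor of glia, measured 4.93, 4.69 and 4.44 in control and 13.1, 12.3 and 13.6 in rescued cells (1.47, SE 0.0931). The anion exchanger SLC26A4 (1.40), the intracellular fibroblast growth factor homologue FGF12 (1.38) and the G protein regulator RGS20 (1.24) were the next in size. In GFP-guide cells the vector also raised SLC26A4 by 1.10, FGF12 by 0.78 and GPR37 by 0.55 on the log2 scale. For RGS20 that effect was 0.21 and not past the threshold.

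Of the newly lowered genes, GPRC5A, a retinoic acid-induced receptor, measured 534, 519 and 522 CPM in control, 549, 550.3 and 549.6 in knockout and 263, 244 and 247 in rescued libraries (−1.06, SE 0.0311, adjusted p = 2.283e-21). TGM2, a transglutaminase that crosslinks matrix proteins, measured 165, 160 and 159 in control and 78.2, 80.4 and 75.5 in rescued libraries. Both also fell in GFP-guide cells with the vector, by 1.28 and 1.16 on the log2 scale. The difference between the 2 vector effects was 0.15 for GPRC5A (adjusted p = 0.01815, and 0.05178 without control replicate 1) and 0.12 for TGM2 (adjusted p = 0.137). RIPK4, a kinase of epithelial differentiation, fell from 21.2, 19.9 and 21.4 CPM in control to 8.90, 9.33 and 10.4 in rescued cells, whereas GFP-guide cells with the vector had 22.3 CPM (difference between the 2 effects −1.16, adjusted p = 2.247e-11). The junction protein PLEKHA7 (−1.28) and the guanine nucleotide exchange factor ARHGEF4 (−1.18) complete the list.

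MITF, the master factor of the melanocyte lineage, stood near the control level in rescued cells. Its level was 56.7, 57.4 and 58.3 CPM in control, 67.0, 62.4 and 66.1 in knockout and 59.0, 51.2 and 53.6 in rescued libraries. Rescued minus control was −0.07 (SE 0.0449, adjusted p = 0.2233, 95% interval −0.17 to 0.02). Without rescued replicate 1 it was −0.13 and past the threshold (adjusted p = 0.01216). In cells with the GFP guide the vector raised MITF to 93.3 CPM, and the 2 vector effects differed by −0.95 (SE 0.0615, adjusted p = 1.541e-12). MLANA, a melanosome antigen, had only 0.709, 1.05 and 1.03 CPM in control and 0.922, 0.757 and 1.14 in rescued libraries (0.02, 95% interval −0.47 to 0.51).

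NGFR, the nerve growth factor receptor of neural crest stem cells, remained below control. It measured 159.9, 159.9 and 164.8 CPM in control, 89.1, 86.0 and 90.1 in knockout and 92.8, 93.1 and 95.7 in rescued libraries (−0.78 against control, SE 0.0382, adjusted p = 3.304e-16). The change from knockout to rescued cells was 0.09 (adjusted p = 0.08487). Cells with the GFP guide and the vector stood at 92.7 CPM too. All libraries of the 3 other groups thus lie below all control libraries.

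Over 30 measured genes of the SOX10-associated melanocyte and glial list, 10 rose and 12 fell against control, and the median was −0.03 after −0.64 in knockout cells. The median over all genes was 0.00 in both, and against control 16.6% of all genes tested rose and 16.9% fell. The counts of every list below are to be read beside these shares. Of its 14 knockout-changed members, 7 returned, where 19.1% of all 992 knockout-changed genes did. Only 2 of the 14 could not be placed, against 41.9% of the 992, so these shares of returned genes are over unlike sets. Among the 7 were the gap junction gene GJB1, the calcium-binding protein S100B and the factor TFAP2B. S100B read 60.0, 61.8 and 62.3 CPM in control, 20.8, 23.2 and 25.1 in knockout and 70.0, 82.0 and 79.4 in rescued libraries. FXYD3, a regulator of the sodium pump, stayed away at 2.09, 2.89 and 2.79 against 7.80, 7.44 and 7.12 in control, as did the factor FOXD3 (−0.93), and TFAP2A stayed above control (1.43). The largest differences of the list were those of SOX6, a SOXD factor, and the ganglioside synthase ST8SIA1, neither of which the knockout had changed by 2-fold. SOX6 read 4.48, 4.22 and 4.04 CPM in control, 4.80, 5.10 and 5.94 in knockout and 26.5, 26.8 and 22.7 in rescued cells (2.58, SE 0.0847, adjusted p = 3.233e-20). In GFP-guide cells the vector took SOX6 only to 8.36 CPM, and the 2 effects differed by 1.28 (adjusted p = 3.763e-08).

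Of 13 measured pigmentation genes, 4 rose (DCT, GPNMB and ST3GAL6 among them) and 4 fell (PMEL, RAB38, MLPH, BACE2), with a median of −0.04 after −0.46. Without control replicate 1, only 2 fell. GPNMB, a melanosome glycoprotein, rose by 0.32 and RAB38, a small GTPase of melanosome traffic, stood at −0.65. Among 22 SOX, MITF and other lineage factors, 7 rose and 4 fell. SOX9, SOX10 and TFAP2B returned, while SOX8, the third SOXE factor, stayed low (1.77 CPM in control, 0.279 in knockout, 0.574 in rescued cells). ZEB2, a factor of the melanocyte program, was at 71.1, 36.8 and 73.6 CPM, a difference from control of 0.05 (adjusted p = 0.4743). SOX4 (0.99) and SOX2 (0.37), stem cell factors of other tissues, were higher than in control, and neither was among the genes that the knockout had changed by 2-fold.

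Of 25 dedifferentiated and invasive genes, 18 were higher and 4 lower in knockout than in control cells, where 21.2% and 22.3% of all genes tested were. In rescued cells 7 were higher and 10 lower than control, where 16.6% and 16.9% of all genes tested were. The median of the list was −0.05 after 0.43 in knockout cells. SOX9, F2RL1 and the lymphatic growth factor VEGFC returned, and WNT5A, JUN and NRG1 stayed above control by 0.67, 0.79 and 0.81. The largest differences were those of SERPINE2, a protease inhibitor (−0.87), and NGFR (−0.78), both below control. AXL, the receptor most used to mark this state, measured 285, 280 and 282 CPM in control, 321, 319 and 296 in knockout and 258, 251 and 255 in rescued cells (−0.15, SE 0.0335, adjusted p = 0.0007823).

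Of 11 measured ERBB receptors and ligands, 3 rose and 3 fell. ERBB3 returned and ERBB2 did not differ past the threshold (−0.05, adjusted p = 0.4422), while the EGFR ligand AREG fell further than in knockout cells. AREG read 3.62, 3.33 and 3.30 CPM in control, 1.14, 1.03 and 0.601 in knockout and 0.177, 0.413 and 0.286 in rescued libraries (−3.52, SE 0.236, adjusted p = 4.725e-13). The ERBB3 ligand NRG1 stayed above control, and BTC (−0.85) and EGF (0.52) had low counts.

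Among 22 other receptor tyrosine kinases, 7 rose and 5 fell. MET, the hepatocyte growth factor receptor, was at 142, 253 and 144 CPM in control, knockout and rescued cells, and FGFR1 at 24.8, 45.0 and 25.6, differing from control by 0.02 and 0.05. PDGFRA, a mesenchymal receptor, rose further, from 1.57, 1.78 and 2.06 CPM in control and 4.15, 3.99 and 3.89 in knockout to 6.85, 5.30 and 5.08. ROR1, a receptor of WNT5A, stayed 0.98 above control, FLT1 stood at 1.22 and the low-count FGFR2 at 1.04. KIT was too sparse to test, with 0 counts in 3 control, 33 in 3 knockout and 2 in 3 rescued libraries.

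Of 20 measured output genes of the ERK pathway, 6 rose and 11 fell, with a median of −0.24 after −0.11 in knockout cells. Over all genes tested, 16.6% rose and 16.9% fell. DUSP4, a phosphatase that acts on ERK, fell from 499, 510 and 501 CPM to 371, 376 and 384 in knockout and 212, 213 and 212 in rescued cells (−1.25, SE 0.0291, adjusted p = 7.722e-24). MYC stayed away at −0.82, and CXCL8 at −2.28. SPRY1, an inhibitor of receptor signalling, moved against the list at 0.91. DUSP6, the phosphatase most used as an ERK readout, measured 153, 155 and 151 in control and 160, 155 and 160 in rescued cells (0.05, adjusted p = 0.2758).

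Of 18 measured immediate early and AP-1 genes, 4 rose and 9 fell, where 16.6% and 16.9% of all genes tested did. The median of the list was −0.25 after −0.30. Of the 7 that the knockout had changed, 2 returned (FOS and NR4A3) and 5 stayed away, on both sides of control. Over all 992 knockout-changed genes, 19.1% returned, 32.6% stayed away and 41.9% could not be placed. EGR1 measured 14.7, 14.1 and 13.9 CPM in control, 2.17, 1.66 and 2.30 in knockout and 3.48, 3.44 and 2.72 in rescued libraries (−2.14, SE 0.0947, adjusted p = 3.576e-17). The vector raised EGR1 to 23.3 CPM in GFP-guide cells, and the 2 vector effects differed by −0.06 (adjusted p = 0.8626). EGR3 (−1.67) and the nuclear receptor NR4A1 (−1.11) stayed below control, and ATF3 (0.99) and JUN (0.79) above it.

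Matrix and adhesion genes changed in both directions. Of 31 extracellular matrix and TGF-beta genes, 12 rose and 13 fell (median −0.03 after 0.28). Fibronectin, FN1, measured 260, 263 and 262 CPM in control, 282, 277 and 293 in knockout and 82.2, 75.3 and 76.0 in rescued libraries (−1.75, SE 0.0373, adjusted p = 7.135e-25). The collagen gene COL6A3 (−1.74) fell likewise, LOXL4, which crosslinks collagen, stayed at −1.06, and COL5A1 came down from 164 to 49.9 CPM and stayed 0.73 above control. HAPLN1, which links hyaluronan to proteoglycans, overshot, from 189, 198 and 183 in control and 74.9, 70.1 and 81.4 in knockout to 319, 325 and 338. The lists of matrix genes and fibroblast markers share LUM and DCN, both 0.79 above control. FN1 was also low in GFP-guide cells with the vector, at 113 CPM.

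Of 28 integrins and laminins, 6 rose and 13 fell (median −0.05 after 0.23). ITGB4, the hemidesmosome integrin, measured 13.9, 13.2 and 12.1 CPM in control, 18.8, 19.5 and 22.2 in knockout and 3.65, 3.55 and 3.11 in rescued cells (−1.92, SE 0.0963). The laminins LAMA1 (−1.08) and LAMC3 (−1.01) were also below control, and the integrin ITGB3 and the laminin LAMA4 returned. Among 26 YAP and TEAD targets, 11 rose and 6 fell (median 0.12 after 0.15). CCN2, a matricellular protein, measured 47.4, 81.2 and 84.0 CPM in control, knockout and rescued cells, while ANKRD1 fell from 15.2, 14.7 and 16.6 in control to 4.93, 4.20 and 5.29 in rescued libraries.

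**Figure D4:**
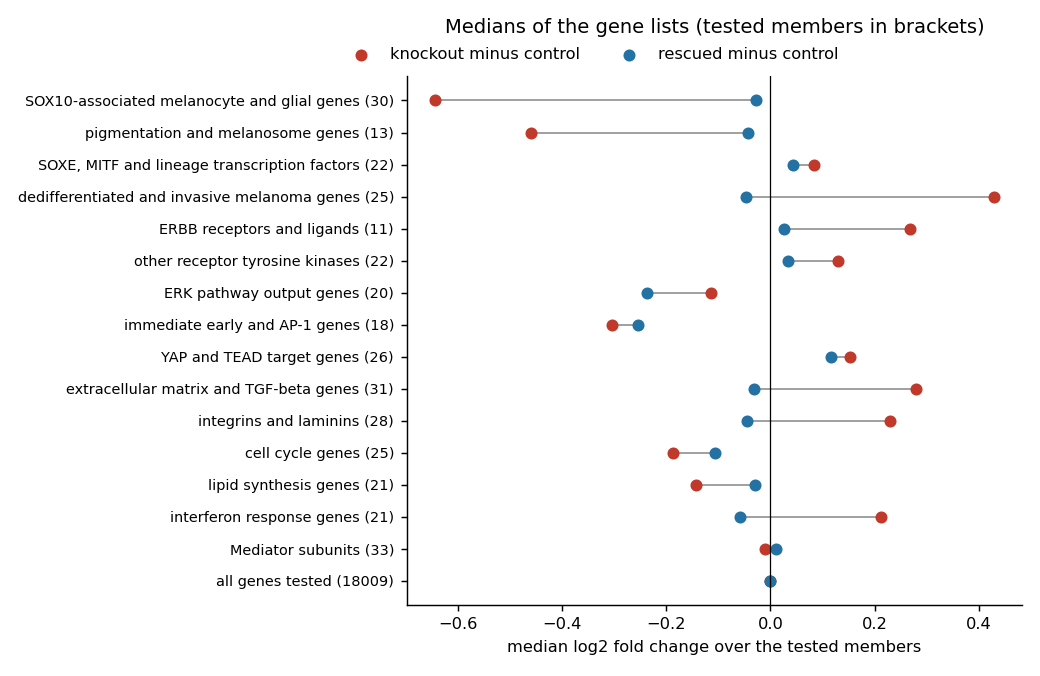
Median log2 fold change of the measured members of each gene list, knockout minus control and rescued minus control (number of measured members in brackets). The medians of the SOX10-associated and the dedifferentiated lists moved from −0.64 to −0.03 and from 0.43 to −0.05, and that of the immediate early list from −0.30 to −0.25; both comparisons share the control libraries.

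Growth-related lists held small differences. Of 25 cell cycle genes, 3 rose and 14 fell (median −0.11 after −0.19), none of them changed 2-fold by the knockout. MKI67, the proliferation marker, measured 616, 648 and 608 CPM in control and 582, 508 and 504 in rescued libraries (−0.23, SE 0.0402, adjusted p = 3.241e-05), and rescued replicate 1 is the highest of its group. CCND1, cyclin D1, stood at −0.46 (SE 0.0328, adjusted p = 1.765e-12) and E2F1 at −0.45. Of 21 lipid synthesis genes, 5 rose and 7 fell, with FASN, fatty acid synthase, lowest at −0.41. Of 21 interferon response genes, 1 rose (RIGI, 0.36) and 5 fell, ISG20 most (−1.01), and the median was −0.06 after 0.21; without control replicate 1, 2 rose. Of 33 Mediator subunits, MED23 was the 1 that fell, and 5 rose by 0.12 to 0.44 (8 rose without rescued replicate 1). Among all genes tested 16.6% rose and 16.9% fell, so the share of Mediator subunits that rose was near that of all genes.

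Of the measured fibroblast, blood cell, epithelial and neuronal markers (8, 3, 6 and 8), 3, 0, 0 and 2 rose and 0, 2, 4 and 2 fell against control. NEFL, a neurofilament, made up most of the neuronal sum and fell to 32.4, 33.5 and 33.1 CPM from 76.2, 78.5 and 78.3.

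Readouts from other libraries, which had no part in placing the genes, were then read for each class. Guides against MED12, a Mediator kinase module subunit, raised 27.9% and lowered 27% of 27453 genes tested in the Mediator experiment. The classes hold only genes among the 18009 tested in the SOX10 experiment. Class counts and the shares over all genes, here and for the other guides and the drug, are therefore over unlike sets. Of the returned lowered genes, 91 of 96 fell with the MED12 guides, of the overshot lowered genes 34 of 38, and of the lowered genes that stayed away 148 of 177. The medians were −1.84, −3.13 and −1.77. Of the genes raised by the MED23 guide, 85 of 93 returned, 23 of 25 overshot and 112 of 145 that stayed away rose. For the genes newly away from control the counts lay in the other direction. Of 69 newly higher genes, 33 fell and 12 rose with the MED12 guides (median −0.64), and of 75 newly lower genes 36 rose and 13 fell (median 0.41). The MED23 guides of the Mediator experiment raised 18.4% and lowered 18.5% of genes. Of the newly higher genes 32 fell and 6 rose with these guides (median −0.51), and of the newly lower genes 23 rose and 9 fell (median 0.19). With guides against MED19, a Mediator subunit, which raised 20.4% and lowered 20.2% of genes, 36 newly higher genes fell and 8 rose (median −0.57), and 22 newly lower genes rose and 14 fell (median −0.01).

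The BRAF inhibitor vemurafenib (1 µM for 24 h) in cells with the GFP guide raised 35.8% and lowered 30.3% of genes. Lowered genes that stayed away fell in 98 of 177 cases and rose in 56 (median −0.64), whereas returned lowered genes rose in 56 of 96 cases and fell in 30 (median 0.46) and overshot lowered genes rose in 23 of 38 (median 1.69). Raised genes that stayed away rose in 91 of 145 cases and fell in 40 (median 0.68). Rising was shared by raised genes that returned, 50 of 93 with 31 falling (median 0.34). It was also shared by those not placed, 146 of 273 with 57 falling (median 0.70). Raised genes that overshot fell in 15 of 25 (median −0.88). The MED12, MED19, MED23 and vemurafenib comparisons of the Mediator experiment share their control libraries, which are other samples than those used to place the genes.

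**Figure D5:**
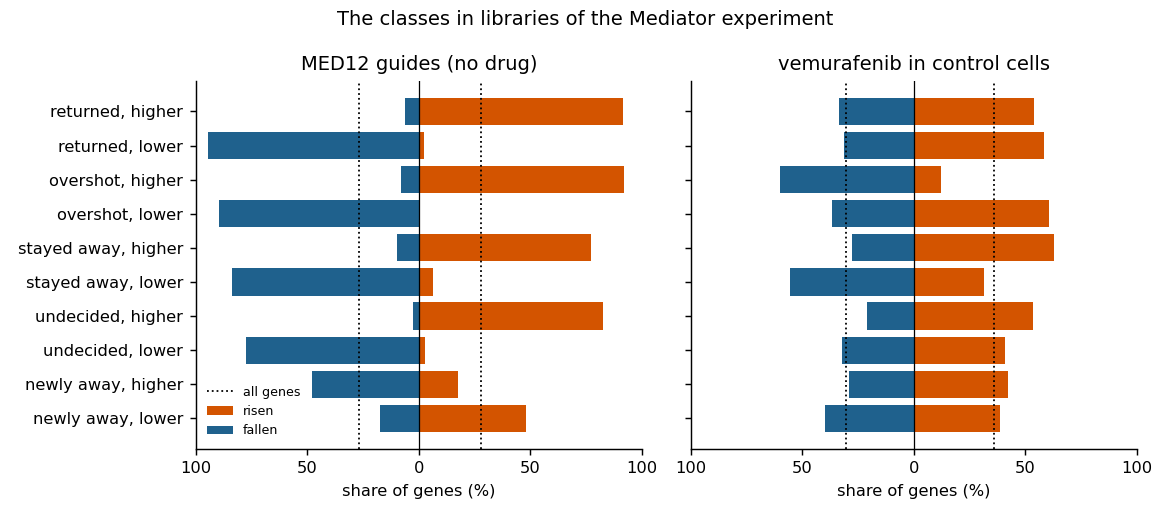
Share of the genes of each class (horizontal axis, percent) that rose (orange, right) or fell (blue, left) at an adjusted p under 0.05 with MED12 guides and with vemurafenib in the Mediator experiment; dotted lines, shares over all 27453 genes tested in that experiment. Lowered genes that stayed away fell under vemurafenib in 98 of 177 cases, and returned lowered genes in 30 of 96.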

How the data were processed

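Members of the comparison and the gene lists were chosen with earlier results of these data known. The deposited values are counts of reads per gene (58721 Ensembl IDs, 58676 of them in GENCODE 29) from poly(A) RNA, made with a stranded mRNA kit per the labels' protocols. Per the submitters' processing notes, bcl2fastq, HISAT2, HTSeq and hg38 were used. Not given in the sources used here are versions, annotation and strand setting, so genes that overlap another are uncertain.

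All 12 libraries of the SOX10 experiment were fitted together (edgeR 4.0.16, R 4.3.3): filterByExpr (minimum count 10, total 15), TMM scaling, quasi-likelihood fits on group means, and Benjamini-Hochberg adjustment over all genes kept. Each SE was taken from the test as |log2 fold change| over √F. A single gene or list member rose or fell at an adjusted p under 0.05, and other calls also need a 2-fold change. CPM uses the TMM-scaled library size. Genes named per class are the 5 with the largest change in each direction among protein-coding genes with a mean log2 CPM of at least 2, at least 30 counts in the higher group and no overlap between groups; 13 more were set by name, and per list up to 4 with the largest difference. Other list members were named after their values were seen. Scripts were tested on simulated data. Replicate numbers did not pair the samples (mean correlation 0.042 over 18 pairs, 5 of them over 0.1). Alternatives tried were DESeq2 1.42.0, another filter, other margins, a replicate block and leaving out each library. Some members of the lists are not reported here.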

Additional observations from a re-analysis of the deposited data

Results flagged for a closer look

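For 15 of the 53 genes named by rule, the SOX10 vector changed expression differently in cells with the MED23 guide than in cells with the GFP guide, by at least 2-fold at an adjusted p under 0.05 in a test of the difference itself (an interaction term in edgeR's quasi-likelihood model). At any size of the difference, 39 passed. Over all 18009 genes tested, 280 (1.55%) passed with the 2-fold requirement and 2644 (14.7%) without it. Most of the 53 genes were chosen for large differences of knockout from control cells and of rescued from knockout cells, whose libraries also enter this test, so these counts and the signs below are in large part set by the choice.

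On the log2 scale, the vector effect in knockout cells minus that in control cells was positive for 9 genes. It was 2.445 for CD200, 1.766 for MMP8, 1.42 for CDH19, 1.378 for FABP7, 1.255 for FST, 1.129 for ERBB3, 1.103 for FOLH1, 1.059 for PDE3A and 1.053 for ANO4. For 6 genes it was negative, at −2.474 for NPTX2, −1.783 for WNT9A, −1.252 for MAL2, −1.156 for RIPK4, −1.134 for PTPRE and −1.12 for EGFR.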

How the results depend on the processing

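Counts of the comparison and of the classes stayed within 1.5 times the reported ones in 173 of 186 recomputations. The other 13 came without a fold minimum, with another return interval or without the filter on low counts. Without a fold minimum, 2982 genes were higher and 3040 lower in rescued than in control cells, 3669 returned, 155 overshot, 666 stayed away, 3332 could not be placed, and 807 and 669 were newly higher and lower. Asking the interval to lie inside 1.2-fold left 24 returned genes, and 2-fold gave 389 returned and 216 not placed. Without a filter on low counts 647 genes could not be placed, and 766 of those chosen in the Mediator experiment. With the replicate block 196 returned, 64 overshot and 327 stayed away, of which 188, 63 and 318 were the same genes. DESeq2's Wald test gave 158, 55 and 276. Leaving out 1 library at a time gave 166 to 200 returned, 53 to 66 overshot and 306 to 337 that stayed away. Of 742 recomputed gene values 741 kept their side of the threshold, the exception being MITF. No value past the threshold changed sign, but MLANA, at 0.02 and not past it, was −0.14 without control replicate 1 or rescued replicate 3. The interaction lost the threshold in 19 of 689 recomputations, 10 of them of F2RL1 and 5 of MLANA, and those of MKI67 and TRIM48, not past it, changed sign without 1 library. Risen Mediator subunits numbered 8 without rescued replicate 1, and fallen pigmentation genes 2 without control replicate 1 or with DESeq2.

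Each group has 3 libraries and the MED23 guide is 1 sequence. Genes with few counts have wide intervals and are often among those not placed, which says nothing of their level. The SOX10 counts do not separate the vector from the cells' own gene, and protein was not measured.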
